A study of Danio rerio with 16 samples.

Results

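The 8 vehicle control libraries of a zebrafish study of triptolide (TP) were compared among themselves, control pools 1-4 against control pools 5-8, as 8 of the 16 libraries in all. Each pool was 30 whole wild type larvae of the WIK strain at 5 days post fertilization (5 dpf), kept in a dish of their own for 6 h with vehicle or with 1.6 µM TP, a plant diterpenoid that blocks transcription by RNA polymerase II. All 16 pools shared strain, age, exposure time, total RNA extraction and library kit. TP pools carry the numbers 11-18 and were used here only as a second set of libraries, TP pools 11-14 against TP pools 15-18. The labels give no batch, dish day or sequencing run, and the numbers 1-4 and 5-8 are those of the sample titles.

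The 2 sets were chosen by the share of counts on 2 genes, si:dkey-153m14.1 and zgc:158463, in which they had been seen to differ. Every gene of this contrast was therefore treated as part of the choice, and its values are given as a description with no test. Tests were run only in the TP pools, whose values did not choose the sets. Counts were summed per gene and divided by the library total (CPM, the count for every 1000000 counts of the library). A gene was called apart when the CPM of the 4 pools of one set did not overlap those of the other set and the fitted fold change was at least 1.5. Log2 fold changes are pools 5-8 over pools 1-4 unless stated otherwise.

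A whole larva at this age holds fast and slow muscle, skin, a differentiating retina and lens, a working liver, a gut that has begun to absorb, and a brain that is still adding neurons. Its total RNA is dominated by ribosomal RNA of the nucleus and the mitochondrion. The rest is messenger RNA and small stable RNAs, such as the U RNAs of the spliceosome and the small nucleolar RNAs (snoRNAs) that guide the maturation of ribosomal RNA. In whole larvae, fewer cells of a type and less RNA per cell cannot be told apart.

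Control pools 1-4 held 31827642, 75490916, 35888298 and 30609674 counts, and control pools 5-8 held 31906304, 24797322, 19679120 and 30921466. TP pools held between 26631852 and 41093922. Of 24451 genes with enough counts, 97 were apart and higher in control pools 5-8 (0.397% of genes) and 377 were apart and lower (1.54%). The higher genes comprised 17 repeated-copy genes described next, 57 small RNA genes and 23 other genes. Scaling decided much of the count. Over all genes the median was -0.22 with library totals and -0.01 with TMM factors, which centre most genes on no change. Under TMM, 196 genes were apart and higher (0.802%) and 82 were apart and lower (0.335%). All 97 higher genes and 82 of the 377 lower genes were called under both scalings. Under library totals 86.9% of all genes were below 0, so gene lists are given relative to the median of all genes. Log2 fold changes of single genes are given as fitted, with no such shift. At the edge of the call, SNORD94 lay just inside at 0.60 and si:dkey-82i20.2 just outside at 0.58, and kbtbd3 lay just inside at -0.59 and abhd17aa just outside at -0.58.

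Among genes with no overlap, the highest log2 fold changes belonged to a group of 17 genes. These took 1.61%, 1.37%, 1.04% and 1.74% of all counts in control pools 1-4 and 12.1%, 10.15%, 8.81% and 6.21% in control pools 5-8. The mean share was 1.44% ± 0.306 in pools 1-4 and 9.32% ± 2.47 in pools 5-8 (SD, n = 4). The 17 log2 fold changes lay between 2.39 and 2.75, and the next gene with no overlap, a SNORA81 gene, was at 1.77. In all 17 genes the highest pool was control pool 5 and the lowest was control pool 3.

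The gene si:dkey-153m14.1 lies on chromosome 20 (chr20:55338636-55339525, GRCz10). It took 0.866%, 0.716%, 0.548% and 0.923% of counts in control pools 1-4 and 6.42%, 5.49%, 4.94% and 3.38% in pools 5-8. The gene zgc:158463 lies on chromosome 5 (chr5:825789-827000), and RefSeq (GRCz12tu) gives it the biotype rRNA. It was the only gene matched to that biotype among 19613 matched genes. Its share was 0.315%, 0.300%, 0.221% and 0.372% of counts in pools 1-4 and 2.42%, 2.16%, 1.68% and 1.22% in pools 5-8. The ratio of the first gene to the second was 2.52 ± 0.157 in pools 1-4 and 2.73 ± 0.173 in pools 5-8 (SD, n = 4), and the ranges of the ratio, 2.38 to 2.75 and 2.54 to 2.94, overlapped.

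**Figure D1:**
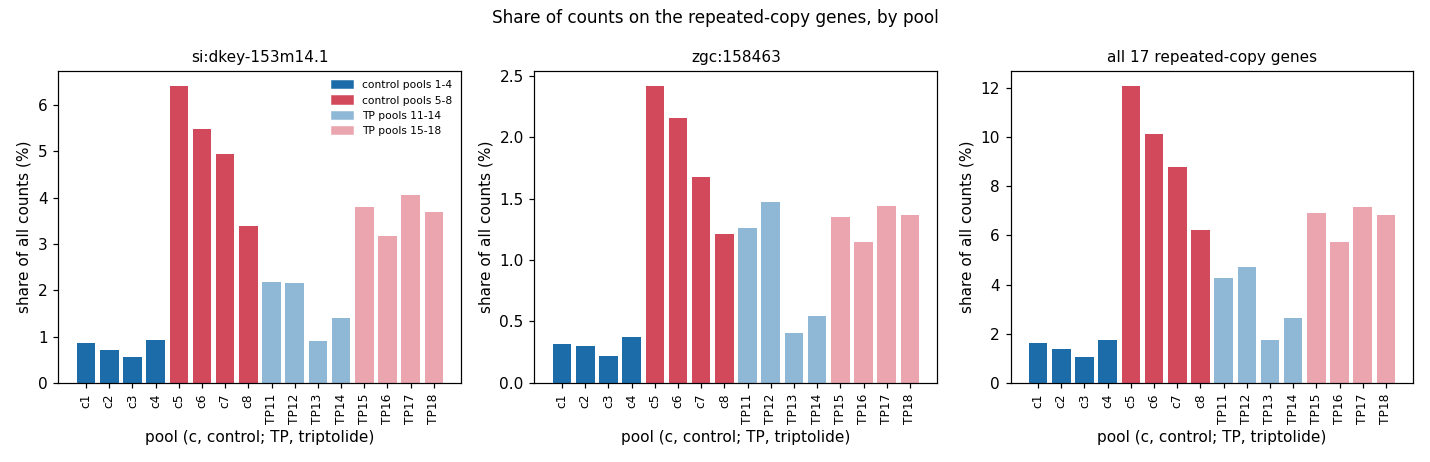
Share of all counts (%) on si:dkey-153m14.1, on zgc:158463 and on all 17 repeated-copy genes, with 1 bar for each pool (c, control; TP, triptolide). Every control pool of 5-8 stands above every control pool of 1-4, and TP pools 15-18 stand above TP pools 11-14 for si:dkey-153m14.1 but overlap them for zgc:158463.

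Of the other members, 12 lie on chromosome 4, 2 on chromosome 5 and 1 on an unplaced scaffold. The genes si:dkey-77p23.6, si:dkeyp-3b12.5, si:dkeyp-3b12.6 and si:dkeyp-3b12.7 are each 1875 bases long and lie between positions 53797928 and 53880663 of chromosome 4. In 3 cases a gene of 1875 bases and the short gene beside it were 3816 or 3817 bases apart. The short genes si:dkeyp-3b12.8, si:dkeyp-3b12.9 and si:dkeyp-3b12.10 are 454, 451 and 449 bases long, and each contains a gene of 168 bases named otud4. In all, 7 of the 17 genes carry the name otud4, and 6 of these are 168 bases long. A pair of them flanks zgc:158463 at chr5:822115-822282 and chr5:833762-833929. The long otud4 gene on chromosome 23 (chr23:43868175-43890603), whose mammalian counterpart encodes a deubiquitinase, was not in the group. Its CPM were 4.84, 5.27, 3.51 and 3.66 in control pools 1-4 and 3.57, 3.15, 3.25 and 2.65 in pools 5-8.

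The values of the copies followed si:dkey-153m14.1 closely. Over the 8 control pools, the 8 genes most like it had Pearson correlations of log2 CPM from 0.997 to 0.9998, and all 8 were members of the group (si:dkeyp-3b12.8 ranked first and si:dkeyp-3b12.6 last). These points share libraries, and a read that matches several copies may have been counted on a wrong copy, so the members do not count as separate measurements. The next genes of the same clone series stood at lower values. On chromosome 4, si:dkeyp-3b12.12 was at 1.03, si:dkeyp-3b12.15 at 0.93, si:dkey-77p23.8 at 0.92, si:dkeyp-3b12.13 at 0.87 and si:dkey-77p23.1 at -0.05, and none of the 5 was apart.

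The TP pools allowed a test of the shares. In TP pools 11-14, si:dkey-153m14.1 took 2.18%, 2.16%, 0.9004% and 1.41% of counts, and in TP pools 15-18 it took 3.80%, 3.16%, 4.06% and 3.69%. The 4 values of TP pools 15-18 were all above those of TP pools 11-14. The difference of the means was 2.02 percentage points (2-sided exact permutation test over 70 splits, p = 0.0286, the smallest these splits allow; 0.0571 after adjustment over the 2 genes). For zgc:158463 the shares were 1.26%, 1.48%, 0.403% and 0.541% in TP pools 11-14 and 1.35%, 1.15%, 1.44% and 1.37% in TP pools 15-18. Here the sets overlapped, and the difference of 0.407 percentage points did not pass (exact permutation test, p = 0.286, adjusted 0.286). TP pools 13 and 14 were the low ones for both genes. The ratio of the 2 genes was 2.005 ± 0.510 in TP pools 11-14, where it ran from 1.46 to 2.60, and 2.77 ± 0.0555 in TP pools 15-18 (SD, n = 4).

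Across all genes, edgeR's quasi-likelihood test called 0 of 24745 genes between TP pools 15-18 and 11-14 at an adjusted p of 0.01 or less (0% of genes). At an unadjusted p under 0.05 it gave 1477 higher genes (5.97%) and 1803 lower genes (7.29%). limma called 0 genes and DESeq2 called 240. By the rule for genes apart, 321 were higher in TP pools 15-18 (1.3%) and 90 were lower (0.364%). The 1 gene with an edgeR adjusted p of 0.05 or less (0.00404% of genes) was the otud4 copy on the unplaced scaffold, at a log2 fold change of 1.32 with a standard error of 0.16 and an adjusted p of 0.0482. Its CPM were 102, 134, 70.4 and 113 in TP pools 11-14 and 281, 224, 276 and 269 in TP pools 15-18. Of the 17 repeated-copy genes, 16 were higher in TP pools 15-18 at an unadjusted p under 0.05, zgc:158463 being the exception. Of the 17, 16 also had no overlap, beside 3.41% of all genes. The copies may share reads and are not separate measurements, so counts of copies cannot be weighed against shares of all genes. Without TP pool 12, or without TP pool 13, edgeR called 5 genes, and in both cases they were si:dkeyp-3b12.8, si:dkeyp-3b12.9, si:dkeyp-3b12.10, si:dkeyp-3b12.11 and the same otud4 copy. DESeq2 called 8 of the 17, all higher in TP pools 15-18, against 0.562% of all genes called higher. RFAM small RNAs had their highest values in TP pools 13 and 14, and their part in these differences was not tested.

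Small RNA genes annotated from RFAM formed the second group, with 506 genes tested. Their share of counts was 1.57%, 2.23%, 2.26% and 2.11% in control pools 1-4 and 5.103%, 2.94%, 2.22% and 4.23% in pools 5-8. Pools 5 and 8 were high and pool 7 lay within the range of pools 1-4, so the sets overlapped. The median log2 fold change of the 506 genes was 0.79, against -0.22 for all genes. Of these, 57 were apart and higher and 0 were apart and lower, beside 0.397% and 1.54% of all genes. Only 27 of the 57 averaged 5 CPM or more in pools 5-8. Control pool 5 was the highest pool in 45 of the 57 genes and control pool 8 in the other 12, a different order from that of the repeated copies. Without control pools 5 and 8, 32 small RNA genes were apart and higher, and without control pool 7 there were 204.

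Spliceosomal RNAs supplied 29 of the 57 genes. U1 RNA, which recognizes the start of an intron, had 213 annotated genes tested with 20 apart and higher, beside 0.397% of all genes. Their summed CPM were 5849, 8874, 8759.7 and 7964 in control pools 1-4 and 22356, 12591, 8512 and 18033 in pools 5-8, so that pool 7 fell among pools 1-4. U2 RNA, which pairs with the branch site of the intron, had 10 genes with 9 apart and higher, beside the same 0.397%. Their summed CPM were 1782, 2290.3, 2293 and 2192 in pools 1-4 and 7089, 4248, 2924 and 5846 in pools 5-8, with no overlap. One U2 gene on chromosome 13 (chr13:18524258-18524448) had 654 ± 90.3 CPM in pools 1-4 and 1570 ± 542 CPM in pools 5-8 (SD, n = 4), and its log2 fold change was 1.26. The summed CPM of U5 and of U6 overlapped between the sets, and none of their genes was apart. The annotated copies are near identical, and reads may have been split between them.

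Small nucleolar and Cajal body RNAs supplied 27 genes. U3, which is needed for the first cuts of the ribosomal RNA precursor, was at 1264, 1987, 2074 and 1820.4 CPM in control pools 1-4 for the gene on chromosome 1 (chr1:15765588-15765803). It was at 6154, 3265, 2198 and 5310.1 CPM in pools 5-8, with a log2 fold change of 1.24. Every pool of 5-8 was above every pool of 1-4, though pool 7 only narrowly. SNORA81 had the largest log2 fold change of the small RNA genes apart. It lies inside eif4a2, a translation initiation factor gene, and was at 18.9, 21.4, 26.03 and 21.4 CPM in pools 1-4 and 119, 57.9, 29.6 and 91.0 CPM in pools 5-8 (log2 fold change 1.77). The RNA subunit of RNase MRP, an enzyme that cuts ribosomal RNA precursors, was at 324, 392, 399 and 371 CPM in pools 1-4 and 1107, 809, 653 and 1088 CPM in pools 5-8 (1.299). The 5S and 5.8S ribosomal RNA genes had medians of 0.57 and 0.63, but 0 of 22 and 0 of 9 were apart, beside 1.94% of all genes. The protein-coding gene spata6l overlaps a U2 gene and was at 1.21. The sources used here do not say whether counting was by strand, so genes that overlap cannot be told apart.

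In the TP pools the small RNAs did not follow the same numbers. Their share was 1.95%, 2.08%, 5.28% and 7.09% in TP pools 11-14 and 3.47%, 3.08%, 2.36% and 2.09% in TP pools 15-18, and TP pools 13 and 14 were the high ones. The median log2 fold change of TP pools 15-18 over 11-14 was -1.08. Of the 57 genes apart among controls, 0 were higher and 14 lower in TP pools 15-18 at an unadjusted p under 0.05. Beside them 5.97% of all genes were higher and 7.29% lower, and among all RFAM small RNA genes 1 was higher and 185 were lower. Of the 57 genes, 0 passed edgeR or DESeq2 at an adjusted p of 0.01 or less. U3 was at -0.88 (standard error 0.36, edgeR adjusted p = 0.336) and the first SNORA81 gene at -1.26 (0.52, 0.334).

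**Figure D2:**
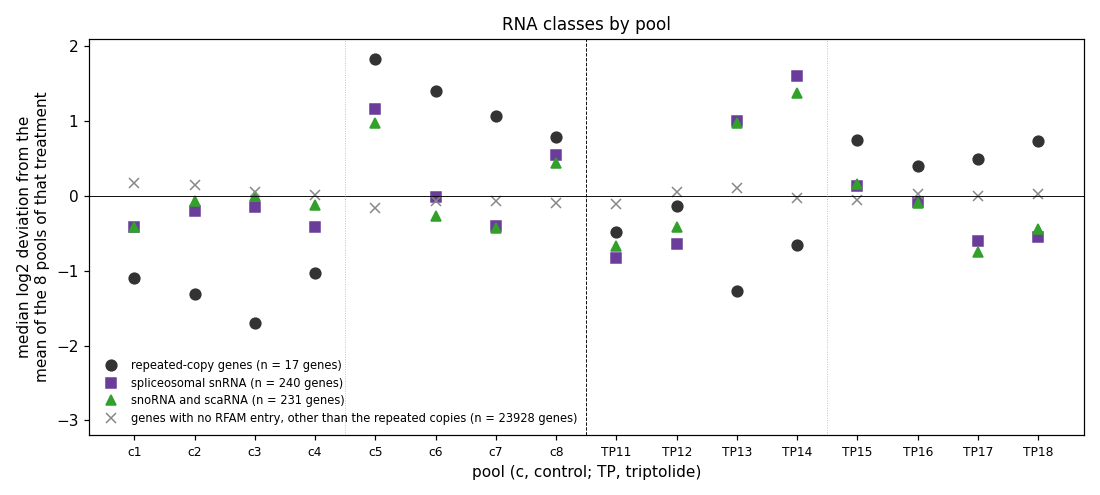
Median log2 deviation of each RNA class from the mean of the 8 pools of the same treatment, by pool (c, control; TP, triptolide). The repeated-copy genes lie above 0 in control pools 5-8 and TP pools 15-18 and below 0 in the other pools, whereas snRNAs and snoRNAs are high in control pools 5 and 8 and TP pools 13 and 14.

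The 23 other genes apart and higher in control pools 5-8 belonged to no single list. Of 36 activity and stress immediate-early genes, 2 were apart and higher, both annotated as socs3a, with a list median 0.01 above that of all genes. With no overlap 2 of the 36 were higher and 5 were lower, beside 0.499% and 15.9% of all genes. The core circadian clock list had 2 of 41 genes apart and higher, nfil3-2 and a short clocka gene, and 0 apart and lower. Its median lay 0.02 above that of all genes. With no overlap 3 of the 41 were higher and 9 lower, and under TMM 6 were higher and 0 lower. Under TMM these shares were 2.31% and 2.07% of all genes. nfil3-2, a repressor of the clock-linked bZIP family, was at 6.85, 5.83, 7.91 and 6.53 CPM in pools 1-4 and 9.28, 11.2, 14.5 and 13.3 CPM in pools 5-8 (0.83). mych, a Myc family gene, was at 35.8, 45.2, 46.9 and 65.1 CPM in pools 1-4 and 65.4, 69.8, 81.9 and 92.6 CPM in pools 5-8 (0.68). For nfil3-2 the sets stood clear of each other, and for mych pool 4 nearly reached pool 5.

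klf9, a Krüppel-like factor induced by glucocorticoids, was at 42.7, 65.6, 71.7 and 83.6 CPM in pools 1-4 and 95.7, 89.2, 112 and 105 CPM in pools 5-8 (0.61). socs3a, a feedback inhibitor of cytokine receptors, is annotated as 2 near-identical genes that may share reads, at 0.74 and 0.63. The gene on chromosome 20 was at 8.61, 15.4, 18.3 and 19.01 CPM in pools 1-4 and 23.2, 22.6, 29.2 and 27.17 CPM in pools 5-8. Pool 1 was the lowest pool for mych, klf9 and both socs3a genes. Only 8 of the 23 genes averaged 5 CPM or more in pools 5-8. A short srsf3a gene (1.27) and a short clocka gene (0.75) overlap the main gene of the same name, and AHRR (1.27) and TFR2 (1.09) had means near 1 CPM.

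Some further genes were higher with no overlap but a fold change below 1.5, and these were picked after their values were seen. They included klf3 (0.56), ddit4 (0.53), which restrains mTORC1 signaling in mammals, and slc3a2b (0.51), a subunit of amino acid transporters. klhl43 (0.47), nocta (0.43), cdkn1d (0.41), cish (0.41), glula (0.34), trim63b (0.32), nfil3-6 (0.29) and ulk2 (0.23) were also among them. Of all genes, 122 were higher with no overlap at any fold (0.499%) and 3877 were lower (15.9%), and under TMM these were 564 (2.31%) and 505 (2.07%). klf2a, a flow-responsive endothelial factor, had a larger log2 fold change of 1.102 but overlapped. It was at 43.6, 40.2, 56.6 and 97.5 CPM in pools 1-4 and 87.0, 120, 127 and 176 CPM in pools 5-8. fkbp5, a glucocorticoid receptor cochaperone, was at 33.4, 39.9, 47.8 and 51.4 CPM against 48.3, 85.2, 91.4 and 110 CPM (0.96). socs1a was at 3.39, 5.75, 6.91 and 13.4 CPM against 14.2, 15.16, 17.6 and 13.2 CPM (1.04). For these 3 genes the overlap came from pool 4 and 1 pool of 5-8. The list of glucocorticoid response genes had a median 0.13 above that of all genes over 30 genes. In it 1 gene was apart and higher (klf9) and 1 apart and lower, beside 0.397% and 1.54% of all genes. The lower gene was cyp11c1, the enzyme of the last step of cortisol synthesis, at -1.01 and under 1 CPM. With no overlap 1 of the 30 genes was higher and 3 were lower, beside 0.499% and 15.9% of all genes. Under TMM 4 were higher and 1 was lower, beside 2.31% and 2.07%.

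In the TP pools, 21 of the 23 genes were tested. At an unadjusted p under 0.05, 4 were higher in TP pools 15-18 and 0 lower, beside 5.97% and 7.29% of all genes. Of the 21, 0 passed the adjusted threshold in edgeR, DESeq2 or limma. nfil3-2 was at 4.81 ± 0.836 CPM in TP pools 11-14 and 6.89 ± 0.711 CPM in TP pools 15-18 (SD, n = 4; log2 fold change 0.52, standard error 0.15, edgeR adjusted p = 0.24). klf9 was at 0.41 (adjusted p = 0.399), mych at 0.01 (0.982) and the socs3a gene on chromosome 20 at -0.10 (0.809).

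**Figure D3:**
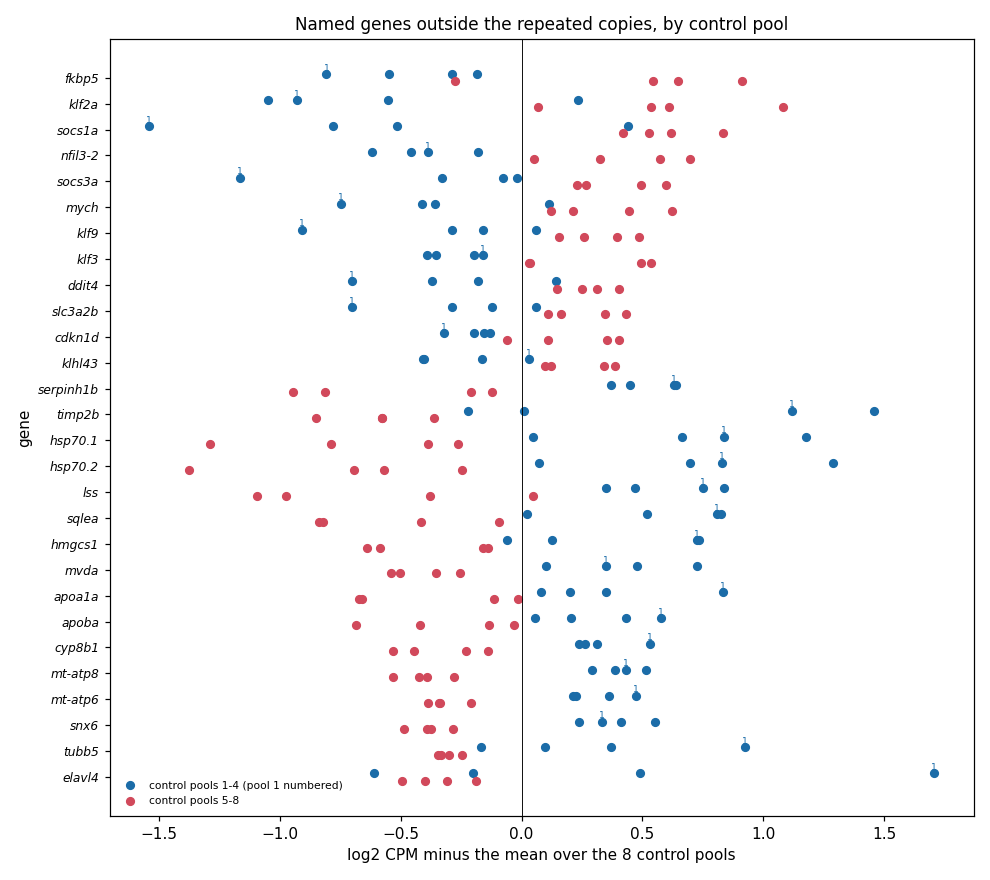
Log2 CPM of 28 named genes in each control pool, as the difference from the mean of the 8 control pools (pool 1 is numbered). Genes from fkbp5 to klhl43 lie mostly to the right in control pools 5-8, genes from serpinh1b to tubb5 mostly to the left, and elavl4 is high in pool 1 alone.

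Among the 377 genes lower in pools 5-8, control pool 1 was the highest pool in 169, pool 2 in 92, pool 3 in 61 and pool 4 in 55. timp2b, an inhibitor of matrix metalloproteinases, had the lowest log2 fold change of the genes that averaged 5 CPM or more in either set. It was at 20.7, 26.2, 8.19 and 9.60 CPM in pools 1-4 and 6.39, 7.42, 5.28 and 6.40 CPM in pools 5-8 (-1.35), so that pools 1 and 2 carried most of the difference. serpinh1b, the collagen chaperone of the endoplasmic reticulum, had no overlap between the sets, with pools 5 and 6 above pools 7 and 8. It was at 70.5, 62.2, 59.0 and 71.0 CPM in pools 1-4 and 41.9, 39.4, 25.9 and 23.7 CPM in pools 5-8 (-1.003). snx6, a sorting nexin of the retromer pathway, was at 28.2, 32.7, 26.4 and 29.7 CPM in pools 1-4 and 16.0, 18.4, 17.1 and 17.3 CPM in pools 5-8 (-0.77), with a wide gap between narrow sets. The same rule named SLC17A3 (-1.06), GLTPD2 (-0.93), cyb5r2 (-0.92), khdrbs3 (-0.84), XPO5 (-0.82), scamp5a (-0.81), orc1 (-0.77) and hmgcs1 (-0.79).

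Of 31 heat shock and chaperone genes, 25 were below the median of all genes and 4 were apart and lower (1.54% of all genes). The list median was 0.17 below that of all genes. With no overlap 11 were lower, beside 15.9% of all genes, and 4 under TMM, beside 2.07%. hsp70.2 was at 4.08, 5.62, 3.73 and 2.42 CPM in pools 1-4 and 1.94, 0.887, 1.42 and 1.55 CPM in pools 5-8 (-1.45). hsp70.1 was at -1.38. These 2 inducible chaperone genes are near copies of each other, lie side by side on chromosome 3 and may share reads. The constitutive chaperone hspa8 was at 4138, 4277, 4202 and 4489 CPM against 3437, 3698, 3487 and 3684 CPM (-0.26), with no overlap. That value lay near the median of all genes, -0.22. Genes of the heat shock list that had no overlap below the 1.5-fold limit included hsp90aa1.2 (-0.58), dnajb1b (-0.57) and hspb1 (-0.40).

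The cholesterol pathway builds sterols from acetyl-CoA through mevalonate and squalene, and genes apart and lower lay at several of its steps. Of 35 genes tested, 27 were below the median of all genes, 10 were lower with no overlap (15.9% of all genes) and 5 were apart and lower (1.54% of all genes). The list median was 0.18 below that of all genes. hmgcs1, which makes the precursor of mevalonate, was at 23.1, 23.2, 13.4 and 15.22 CPM in pools 1-4 and 9.28, 12.7, 8.94 and 12.5 CPM in pools 5-8 (-0.79). sqlea, squalene epoxidase, was at 4.71, 4.77, 2.73 and 3.85 CPM against 1.504, 2.02, 1.52 and 2.52 CPM (-1.08). lss, lanosterol synthase, was at 3.02, 3.21, 2.28 and 2.48 CPM against 1.38, 1.86, 0.915 and 0.841 CPM (-1.14). Pools 3 and 4 were the lowest of pools 1-4 for sqlea and hmgcs1, and closest to pools 5-8. mvda (-0.84) and nsdhl (-0.63) were the other 2 genes apart, and msmo1 (-0.56), ebp (-0.57), acat2 (-0.40) and fdps (-0.35) had no overlap below the 1.5-fold limit. Under TMM 3 of the 35 genes were lower with no overlap, beside 2.07% of all genes.

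Liver and gut genes were mixed. Of 69 liver and plasma protein genes 5 were apart and lower (1.54% of all genes), yet the median of the list lay 0.02 above all genes. apoa1a, the main protein of high density lipoprotein, was at 457, 326, 270.3 and 295 CPM in pools 1-4 and 161, 237, 162 and 253 CPM in pools 5-8 (-0.73). apoba (-0.63) and apoa4a (-0.86), both of lipoprotein particles, and cyp8b1 (-0.67), an enzyme of bile acid synthesis, were apart as well. The liver marker fabp10a was at 245 ± 30.9 CPM in pools 1-4 and 224 ± 18.5 CPM in pools 5-8 (SD, n = 4). Of 37 enterocyte genes 33 were below the median of all genes, and the list median was 0.23 below it. With no overlap 10 were lower, beside 15.9% of all genes, and 2 under TMM, beside 2.07%. Genes apart in that list, beside 1.54% of all genes, were apoa1a, treh (-0.84), which encodes the brush border enzyme trehalase, and agr2 (-0.65), a folding factor of secretory cells. Leaving out control pool 1 moved the enterocyte median to 0.15 below that of all genes. Exocrine pancreas had 0 of 32 genes apart, beside 1.94% of all genes apart in either direction, and a median 0.08 above that of all genes. gcga, the glucagon gene of the endocrine pancreas, was at 9.46 ± 2.02 CPM in pools 1-4 and 6.25 ± 0.555 CPM in pools 5-8 (-0.61).

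Neuronal genes had the lowest median of the 46 lists with at least 10 genes tested, 0.26 below that of all genes. Of the 45 genes, 42 were below the median of all genes and 3 were apart and lower (1.54% of all genes). With no overlap 6 were lower (15.9% of all genes), and 1 under TMM (2.07%). This median rested on control pool 1. The median deviation of the list was 0.70, 0.29, 0.07 and -0.22 in pools 1-4 and -0.20, -0.13, -0.12 and -0.31 in pools 5-8, and without pool 1 the list lay 0.08 below all genes. elavl4, an RNA-binding protein of neurons, was at 161, 69.3, 43.0 and 32.4 CPM in pools 1-4 and 43.4, 39.9, 37.5 and 35.1 CPM in pools 5-8 (-0.97), so that pool 4 was below every pool of 5-8. slc6a1b, a GABA transporter, was at -1.02 and elavl3 at -0.65, and both overlapped in the same way. Among genes apart, tubb5, a beta tubulin, was at 130.1, 88.5, 73.2 and 61.0 CPM against 55.7, 57.7, 54.0 and 54.4 CPM (-0.67). slc17a6b, a vesicular glutamate transporter, was at -0.64 and syt1b, a synaptic vesicle calcium sensor, at -0.66. The first principal component of the control pools (43.0% of the variance) also set pool 1 aside, at -60.7, against -22.9, -3.22 and 14.07 for pools 2 to 4 and 30.4, 9.90, 7.80 and 24.7 for pools 5-8. The sets overlapped on it, since pool 4 lay above pools 6 and 7. Genes with a transcript of 4001 bases or more were highest in pool 1 as well, with median deviations of 0.35, 0.14, 0.02 and -0.13 in pools 1-4 and between -0.18 and -0.03 in pools 5-8. The part of transcript length in the neuronal values was not tested.

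Of 41 cell cycle and replication genes 36 were below the median of all genes and 3 were apart and lower (1.54% of all genes). The list median was 0.17 below that of all genes. With no overlap 20 were lower, beside 15.9% of all genes, and 5 under TMM, beside 2.07%. The genes apart were gins2 (-0.89), part of the replicative helicase, ccnb1 (-0.62), cyclin B1, and chaf1b (-0.62), which places histones on new DNA. mcm6 was at -0.53, pcna at -0.46 and cdk1 at -0.42. Of 54 lens crystallin genes 51 were below the median of all genes. With no overlap 11 were lower, a share near the 15.9% of all genes, and 1 under TMM, and only lim2.5, a lens fiber membrane protein, was apart (-0.62). Pools 5 and 8 were the low ones for this list, with median deviations of -0.43 and -0.34, and pool 7 lay at 0.02. Several other tissue lists held 1 or 2 genes apart and lower, beside 1.54% of all genes. Photoreceptors had 1 of 58, the red cone opsin opn1lw1 (-0.69), and neural progenitors 1 of 44, the proneural factor ascl1a (-0.67). With no overlap 20 of the 44 neural progenitor genes were lower, beside 15.9% of all genes, and 2 under TMM, beside 2.07%. The median of that list lay 0.03 below that of all genes. Endothelium had 1 of 36, etv2 (-0.66), and pituitary and hypothalamic hormones 1 of 26, cga (-0.59), the shared subunit of pituitary glycoprotein hormones. Erythroid genes had 2 of 29, among them hbae1 (-0.62), an embryonic globin, and matrix metalloproteinases and their inhibitors 2 of 23, timp2b and the collagenase mmp13a (-0.67). Fast skeletal muscle had 0 of 56 genes apart, beside 1.94% of all genes apart in either direction, and a median 0.12 above that of all genes. With no overlap 2 of the 56 were higher and 4 lower, beside 0.499% and 15.9% of all genes. Under TMM 13 were higher and 1 lower, beside 2.31% and 2.07%. Cytosolic ribosomal proteins had 0 of 82 apart, beside the same 1.94%, and a median 0.07 above. Leaving out pool 1 moved the muscle median to 0.04 above and the ribosomal protein median to 0.05 below that of all genes.

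**Figure D4:**
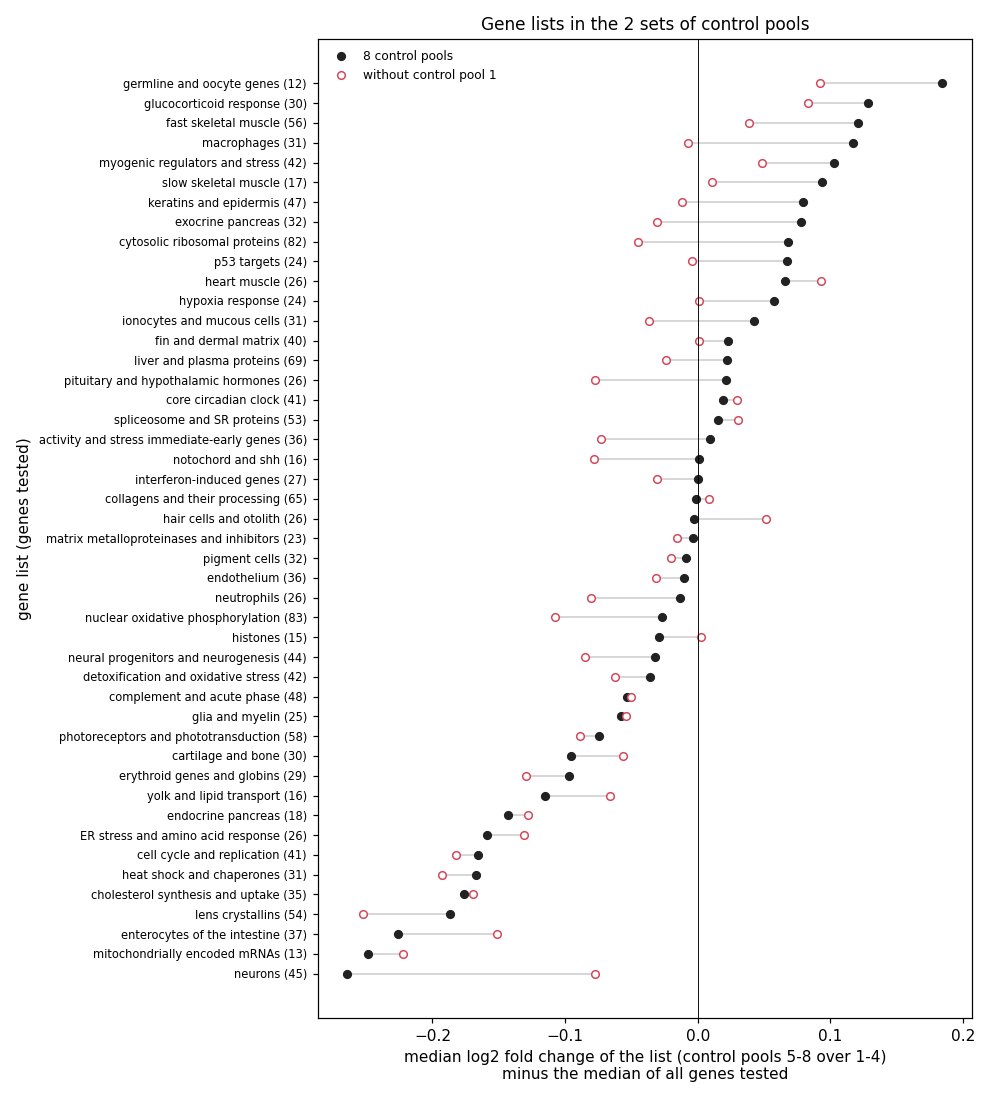
Median log2 fold change (control pools 5-8 over 1-4) of 46 gene lists, relative to the median of all genes tested. Filled points use the 8 control pools and open points leave out control pool 1, which brings the neuronal list from -0.26 to -0.08.

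Messenger RNAs of the mitochondrial genome, which encode subunits of the respiratory chain and of ATP synthase, took 2.34% ± 0.0813 of counts in pools 1-4 and 1.80% ± 0.0781 in pools 5-8 (SD, n = 4). Of the 13 genes 11 were lower with no overlap under library totals (15.9% of all genes) and 8 under TMM (2.07%), and leaving out any control pool left between 11 and 13. mt-atp8 and mt-atp6, which overlap and encode subunits of ATP synthase, were the 2 apart. mt-atp8 was at 145, 154, 141 and 132 CPM in pools 1-4 and 82.1, 88.9, 74.6 and 80.4 CPM in pools 5-8 (-0.81), and mt-atp6 was at 1578, 1462, 1318 and 1330.4 CPM against 868, 983, 897 and 899.5 CPM (-0.64). mt-co1 was at 8642, 8651, 8080.4 and 7613 CPM against 6006, 6335, 6351 and 6392 CPM (-0.40). The 2 genes that overlapped were mt-co2 (-0.22) and mt-cyb (-0.19). AC024175.4, which lies on the mitochondrial genome and took the largest share of counts of any gene, held 20.54% ± 1.80 in pools 1-4 and 19.4% ± 1.16 in pools 5-8. Nuclear genes of oxidative phosphorylation had 0 of 83 apart, beside 1.94% of all genes apart in either direction. Their median was 0.03 below that of all genes. With no overlap 33 of the 83 were lower, beside 15.9% of all genes, and 0 under TMM, beside 2.07%.

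Of the 377 lower genes, 366 were tested in the TP pools. At an unadjusted p under 0.05, 8 were higher and 41 lower in TP pools 15-18, beside 5.97% and 7.29% of all genes, and 0 passed the adjusted threshold in edgeR. DESeq2 called 6 of the 366, all lower (1.64%, against 0.408% of all genes called lower): tuba1a, tubb5, apoba, snx6, mt-atp8 and mt-atp6. snx6 was at 25.2 ± 5.54 CPM in TP pools 11-14 and 15.7 ± 2.08 CPM in TP pools 15-18 (SD, n = 4). Its log2 fold change was -0.69, with a standard error of 0.15 and an edgeR adjusted p of 0.236. tubb5 was at -0.77 (0.19, 0.236) and serpinh1b at -0.60 (0.13, 0.236), each with no overlap. mt-atp6 was at -0.42 (0.09, 0.236), also with no overlap. lss was at -0.62 and sqlea at 0.47, and neither passed. hsp70.2 was at 0.67, with 1 high value of 7.15 CPM in TP pool 16 and the other 7 TP pools between 1.28 and 2.38 CPM. The median over the 366 genes was -0.08, beside -0.02 for all genes. With no overlap at any fold, 17 of the 366 genes were lower and 2 were higher in TP pools 15-18, the latter being enpp4 (0.43) and GABRG1 (1.03), beside 3.6% and 3.41% of all genes.

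Some lists were also counted in the TP pools at an unadjusted p under 0.05, where 7.29% of all genes were lower and 5.97% higher in TP pools 15-18. List sizes given here are of genes tested among controls, and the filter in the TP pools kept a partly different set. The cell cycle list (41 genes) had 17 lower and 1 higher, and nuclear oxidative phosphorylation (83) had 28 lower and 0 higher. Liver and plasma proteins (69) went both ways, with 23 lower and 9 higher. Collagens (65) had 17 lower and 0 higher, and mitochondrial messenger RNAs (13) had 7 lower and 0 higher. None of these genes passed edgeR's adjusted threshold of 0.01. The neuronal list (45) had 9 lower and 1 higher, and the cholesterol list (35) had 5 lower and 1 higher. Heat shock and chaperone genes (31) had 10 lower and 1 higher, and lens crystallins (54) had 11 lower and 1 higher. Neural progenitors (44) had 10 lower and 1 higher, and slow skeletal muscle (17) had 6 lower and 0 higher. Interferon-induced genes (27) had 0 lower and 3 higher, and cytosolic ribosomal proteins (82) had 1 lower and 0 higher. Not every list is given here.

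**Figure D5:**
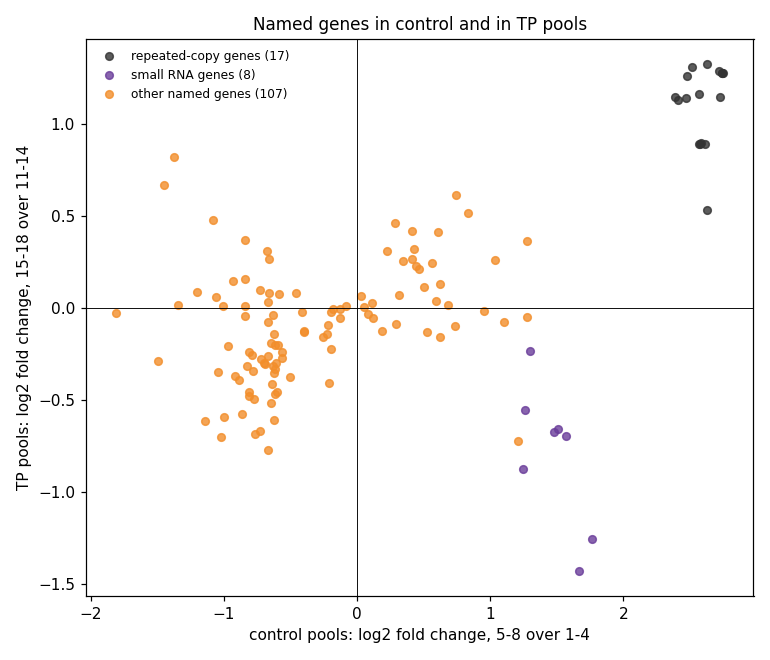
Log2 fold change of the named genes among control pools (5-8 over 1-4, horizontal) and among TP pools (15-18 over 11-14, vertical), with 17 repeated-copy genes, 8 small RNA genes and 107 other genes. The repeated-copy genes are above 0 on both axes, the small RNA genes are above 0 among controls and below 0 among TP pools, and the other genes fall on all sides of the origin.

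For part of the genes named here, the sign of TP over control under library totals differed with the control set used. Both comparisons use the same 8 TP pools, so their values are given side by side. For si:dkey-153m14.1 the log2 fold change of TP over control was 1.81 against pools 1-4 and -0.92 against pools 5-8, and for zgc:158463 it was 1.90 and -0.73. For lss the values were -0.34 and 0.80, for apoa1a -0.05 and 0.68, for mt-atp8 -0.15 and 0.66, and for snx6 -0.52 and 0.25. For U2 on chromosome 13 they were 1.001 and -0.26. The sign was the same with either set for klf2a (-2.21 and -3.32), serpinh1b (-3.07 and -2.07), socs3a on chromosome 20 (-1.31 and -2.05) and tubb5 (-1.27 and -0.60). Of the 132 genes with values here, 57 had opposite signs against the 2 control sets, and most of these genes had been named for differing between the sets. Under TMM 56 had opposite signs, but they were not all the same genes. With TMM the sign was the same against either set for lss (0.09 and 1.03), apoa1a (0.39 and 0.92) and mt-atp8 (0.28 and 0.90). It still differed for snx6 (-0.08 and 0.51), si:dkey-153m14.1 (2.25 and -0.67) and zgc:158463 (2.34 and -0.48).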

How the data were processed

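RNA-seq of 16 libraries was used as raw counts over 57264 Ensembl transcripts, which the authors deposited with symbols, gene IDs and GRCz10 positions and without normalization. The submitters' notes list the tools Bowtie2, FastQC, limma and SAMtools, without versions. Every count was even, so both reads of a pair may have been counted. How the authors' pipeline assigned reads that fit several copies is not stated in the sources used here, which bears on the repeated copies and the small RNAs.

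Counts were summed over the transcripts of each of 31812 genes. The 209 transcripts without a gene ID, with 0.220% to 0.282% of counts, stayed in the totals only. Each count was divided by its library total and multiplied by 1000000 (CPM). edgeR 4.0.16 in R 4.3.3, scaled by library totals alone after edgeR's filter on expression, gave the fitted fold changes and, for TP pools only, quasi-likelihood tests with Benjamini-Hochberg adjustment at 0.01. The p-values weigh the difference between the sets of TP pools against the spread between pools. Small RNA classes follow the RFAM entries of the deposited descriptions. A current symbol was found for 82.1% of gene IDs and used beside the deposited one to match 47 lists, and RefSeq (GRCz12tu) gave biotypes only.

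The sets, members and lists were chosen with earlier results of these data known. Named genes are the 2 that chose the sets, the 12 highest and 12 lowest genes apart with a mean of at least 5 CPM and no clone name, up to 5 genes apart per list with at least 1 CPM, klf2a and serpinh1b, the 8 genes with the highest CPM, and the 8 most like si:dkey-153m14.1. The 17 repeated-copy genes are the genes apart with a log2 fold change of at least 2. Further genes were named after their values were seen.

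Alternatives were TMM factors, size factors of DESeq2 1.42.0, limma 3.58.1, totals without mitochondrial and choosing genes, other filters and fold limits, single transcripts, and leaving out each pool. Counts were simulated for 24413 genes in the TP design, with 200 genes changed in all. edgeR called 89% of genes changed 2-fold, with 100% of the increases and 78% of the decreases found. It called 100% of genes changed 4-fold and 8 unchanged genes. Genes with lower means were not changed and recovery was not split by CPM, so these shares cannot be carried over to genes with few reads. No pair of control libraries was a duplicate, since the chi-square per degree of freedom on halved counts was at least 4.07.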

Additional observations from a re-analysis of the deposited data

Results flagged for a closer look

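In 308 groups of 4 pools, 14 had 1 pool whose gap to its nearest neighbour was over 0.829 of the range of the 4, where chance gives about 1 in 20. Of these, 4 were control pool 5. Control pool 5 was high for 2 otud4 copies, at 63.1 CPM (the copy on chromosome 4 with gene ID ENSDARG00000100437) and 73.4 CPM (the copy on chromosome 5 with gene ID ENSDARG00000087953), beside 24.8 to 30.5 CPM and 26.8 to 34.4 CPM in pools 6-8. It was low for mt-co1, at 6006 CPM, and for acta1b, a muscle actin gene, at 921 CPM. Control pool 1 was low for the share of small nucleolar RNAs, at 0.502% of counts, and high for nkx2.4a, at 2.39 CPM.

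Control pool 2 held 75490916 counts, well above pools 1, 3 and 4. Control pool 4 was high for hbae1 (33.8 CPM), control pool 6 low for trim63b (58.3 CPM), control pool 7 high for fezf1 (1.83 CPM), and control pool 8 low for ttna (4815 CPM), the titin gene, and for elavl3 (28.9 CPM). In the TP pools, pool 17 was high for AC024175.4 at 24.6% of counts, and pool 18 was high for AC024175.17 at 1.23% of counts.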

How the results depend on the processing

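With 4 pools a set, no test of the control contrast and 1 choice of sets, the values describe these 8 libraries only. Genes under 5 CPM, which made up most of the calls, rest on few reads, and shares of whole larvae cannot place a difference in a tissue. The promoter motif comparison was not run, since no promoter sequences were used here. No paired analysis was possible because the compared sets share no replicate number (1-4, 5-8, 11-14 and 15-18). Deviations of control and TP pools 10 numbers apart had a mean correlation of 0.09, from -0.21 to 0.36, with 4 of 8 above 0.1, and other pairs ran from -0.38 to 0.52.

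The 17 repeated-copy genes stayed apart and higher under the other scalings and with pools left out, the alternatives in which they were counted. They were picked for a log2 fold change of at least 2 in these same pools, so this is not a test. The count of all genes apart and higher (97) was 196 with TMM factors, 200 with DESeq2 size factors, 196 without control pools 5 and 8 together, and 111 to 260.0 without single pools. The count lower (377) was 82 with TMM, 79 with DESeq2 size factors, 193 with totals that leave out mitochondrial and choosing genes, 64 at a fold of 2, 3877 with no fold minimum, 941 for single transcripts, 1100.0 without pools 5 and 8, and 445 to 1156 without single pools, lowest without pool 1 and highest without pool 4. Small RNA genes apart (57) were 106 with TMM, 108 with DESeq2, 32 without pools 5 and 8, and 50 to 204 without single pools. Other genes higher (23) were 73 with TMM, 75 with DESeq2, 42 with the reduced totals, 147 without pools 5 and 8, and 39 to 54 without single pools. Fewer pools make it easier for sets not to overlap, and the cause of other shifts was not tested. Of 83 called named genes, 83 kept their sign with TMM, with DESeq2 and with the reduced totals. A call needed at least 1.5-fold, and TMM moved the median of all genes only from -0.22 to -0.01. A change of sign was therefore hardly possible for these genes. The fold change moved by at least the SD within sets for 18 of them with TMM and 20 with DESeq2 size factors. A kept sign is not a kept call. Under TMM the sets overlapped for timp2b, hmgcs1, sqlea, apoa1a, apoba and tubb5, among others. The split of the higher, lower and small RNA counts and the joint removal of pools 5 and 8 were chosen after seeing the data.

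In the TP pools, edgeR's 0 calls became 240.0 with DESeq2, 1 at an adjusted p of 0.05, and 0 to 5 without single pools (5 without TP pool 12 or 13, and 3 without TP pool 14, nsfa, marcksl1b and scg2b). Of genes apart among controls, 0 calls became 1 at 0.05 and 0 to 5 without single pools. The difference in share of si:dkey-153m14.1 was 1.76 to 2.19 percentage points without single pools, with an unadjusted exact permutation p of 0.0286 each time. That p is the smallest the remaining splits allow. The sets did not overlap with all pools in, so leaving out a pool could give no other p. That of zgc:158463 was 0.234 to 0.592 (unadjusted exact permutation p of 0.0571 to 0.486).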
